A study of Mus musculus with 2 samples.

Results

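Chemokine and cytokine response genes are described here from the tags of 1 Brg1 chromatin immunoprecipitation (ChIP) library, set against 1 input library made without an antibody. The 8 genes lie in 4 loci on the mm9 build. Ccl2, Ccl7, Ccl11, Ccl12 and Ccl8 share an interval of 160 kb at chr11:81800000-81959999, and Socs3 (chr11:117807000-117850999, 44 kb), Il6 (chr5:30319000-30366999, 48 kb) and Lif (chr11:4137000-4192999, 56 kb) each have the gene interval with 20 kb added on both sides. Together the loci hold 308 of the 2641863 windows of 1 kb in the genome. The genes were chosen by name and position with earlier ChIP/input results of these libraries known, so all ratios below are descriptions of these 2 libraries and no p-value is given for them.

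Both libraries came from primary embryonic fibroblasts of wild-type mice at E13.5, whose background was a mix of C57BL/6 and 129, the ChIP being made with a rabbit polyclonal antibody against Brg1. Chromatin was released with micrococcal nuclease, which cuts between nucleosomes, and was sonicated briefly. No treatment is named in the labels, and whether embryos were pooled is not stated. The ChIP library held 13581267 tags and the input 5778620, or 5.47 and 2.32 tags per kb of the autosomes. With 1 library per group there is no replicate check, and the 95% intervals cover counting error only. The cell type was not checked against markers, since no gene annotation on mm9 was used.

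Brg1 is an ATPase of Swi/Snf, a complex that slides and evicts nucleosomes and so changes the access of transcription factors to DNA. The CC chemokines are secreted proteins that draw leukocytes along a gradient, and fibroblasts are among the cells that make them when exposed to inflammatory signals. Interleukin 6 (Il6) and leukaemia inhibitory factor (Lif) are cytokines that signal through the shared receptor chain gp130 to STAT3, and Socs3 is a target of STAT3 that inhibits this signalling. Promoters of genes of this kind are known for sites of NF-kB, AP-1, C/EBP and STAT factors, which respond to such signals.

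The promoters differ in make-up, and are shown because ChIP tags were dense at the edges where Il6 and Socs3 start. At Socs3 they were also dense well outside the gene. RefSeq promoter sequences matched 5 of the 8 genes. Each is the 250 bases before the start, 5′ to 3′ on the strand of the gene, with coordinates on GRCm38.p6, which is not the build of the tags. Capitals mark matches on either strand. The motifs searched were the box near the start of many regulated genes, spelled TATAAA, and the GC box, spelled GGGCGG. For AP-1 the motif was TGANTCA, while that of the STAT factors was spelled TTCNNNGAA and that of C/EBP was spelled TTGCNNAA. The consensus of NF-kB was searched as well.
Ccl12 promoter, chr11:82101595-82101844, + strand: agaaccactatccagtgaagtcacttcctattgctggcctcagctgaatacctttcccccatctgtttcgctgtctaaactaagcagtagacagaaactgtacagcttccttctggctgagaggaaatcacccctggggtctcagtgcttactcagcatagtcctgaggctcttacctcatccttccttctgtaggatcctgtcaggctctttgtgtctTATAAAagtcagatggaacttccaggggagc
Ccl8 promoter, chr11:82114935-82115184, + strand: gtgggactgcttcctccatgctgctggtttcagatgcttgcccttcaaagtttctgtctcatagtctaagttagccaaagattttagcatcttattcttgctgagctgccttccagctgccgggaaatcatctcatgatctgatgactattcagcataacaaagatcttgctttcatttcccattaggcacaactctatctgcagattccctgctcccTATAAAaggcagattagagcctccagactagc
Il6 promoter, chr5:30012864-30013113, + strand: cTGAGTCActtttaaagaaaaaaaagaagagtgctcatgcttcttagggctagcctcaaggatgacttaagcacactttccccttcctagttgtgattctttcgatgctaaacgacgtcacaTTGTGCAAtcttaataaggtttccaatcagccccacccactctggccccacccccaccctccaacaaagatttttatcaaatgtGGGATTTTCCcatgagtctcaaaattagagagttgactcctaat
Lif promoter, chr11:4257318-4257567, + strand: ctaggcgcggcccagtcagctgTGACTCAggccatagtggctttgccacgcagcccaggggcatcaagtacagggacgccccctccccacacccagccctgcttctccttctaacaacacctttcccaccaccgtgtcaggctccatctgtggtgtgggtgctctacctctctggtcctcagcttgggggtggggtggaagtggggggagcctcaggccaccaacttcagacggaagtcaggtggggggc
Socs3 promoter, chr11:117969367-117969616, - strand: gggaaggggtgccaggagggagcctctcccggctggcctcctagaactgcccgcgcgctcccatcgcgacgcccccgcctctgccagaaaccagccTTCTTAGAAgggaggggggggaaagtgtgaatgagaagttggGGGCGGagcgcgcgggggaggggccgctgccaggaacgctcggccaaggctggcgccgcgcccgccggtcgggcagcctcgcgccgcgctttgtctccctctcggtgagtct

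The promoters of Ccl12 and Ccl8 each held the first of these motifs, the TATA box, from base -31 and from base -32 relative to the start, a motif found in 12.4% of the 32851 promoters of the table. Each had 1 CpG, with a GC content of 48.4% for Ccl12 and 44.8% for Ccl8, against medians of 6 CpG and 52.4% over all promoters. The Il6 promoter held 1 match each to AP-1, C/EBP and the NF-kB consensus, which occur in 6.75%, 9.56% and 3.90% of promoters, and its GC content was 42.8%. The Lif promoter held an AP-1 match and 6 CpG, at 63.6% GC. The Socs3 promoter was the richest of the 5 in GC, at 71.6% with 26 CpG, and held a GC box (in 32.7% of promoters) and a STAT match (in 7.02%). The start used for Socs3 in that table lies 970 bases inside the outer bound of the gene. No searched motifs overlapped in these 5 sequences. A match describes letters and is not evidence of binding.

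Brg1 ChIP tags were dense over the 160 kb interval that holds the chemokine genes and over the Socs3 locus, and less so over the Il6 and Lif loci. The Socs3 locus held 879 ChIP tags and 167 input tags, which after scaling to the autosomal totals is a ratio of 2.23 (95% interval 1.89 to 2.65). The chemokine cluster held 2324 ChIP tags and 499 input tags, at a ratio of 1.98 (1.79 to 2.18). The Il6 locus had 360 ChIP and 109 input tags (ratio 1.40, 1.13 to 1.75), and the Lif locus had 625 and 195 (ratio 1.36, 1.16 to 1.61). In this order the neighbouring values of Socs3 and the cluster did not differ beyond counting error, with a quotient of 1.13 (0.933 to 1.37), and neither did those of Il6 and Lif, with 1.03 (0.788 to 1.35). The other 4 of the 6 pairs, Socs3 or the cluster over Il6 or Lif, had quotients of 1.41 to 1.64 with lower bounds between 1.11 and 1.30.

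**Figure D1:**
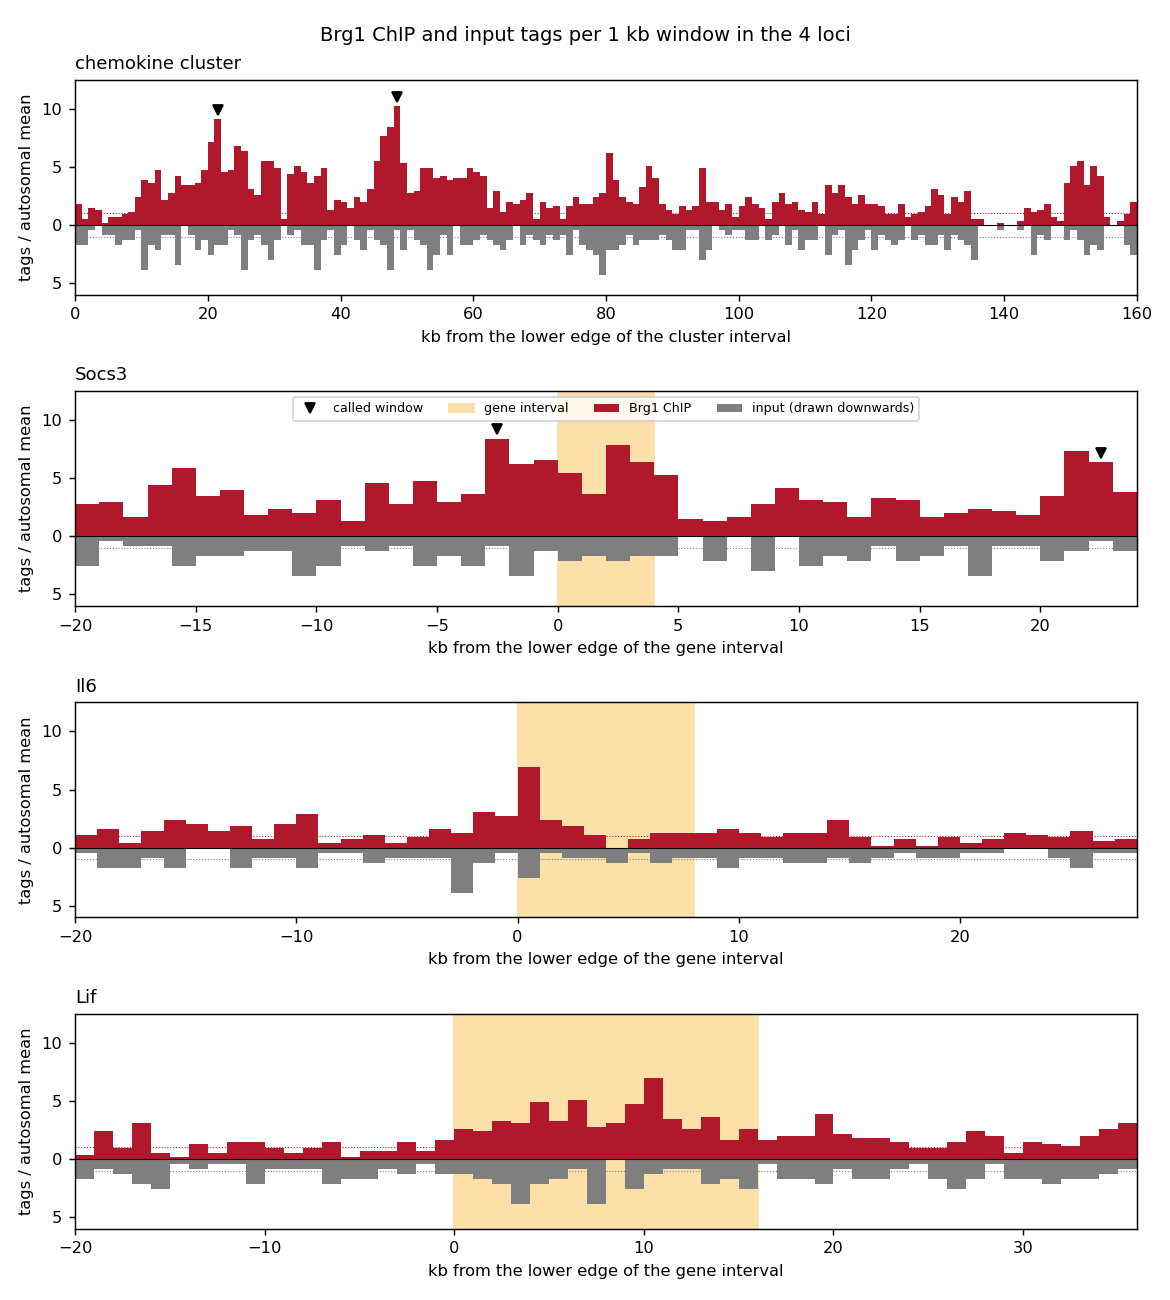
Brg1 ChIP tags (red, upwards) and input tags (grey, downwards) in 1 kb windows of the 4 loci, each divided by the autosomal mean of its library (dotted lines), against the distance in kb from the lower edge of the interval. Triangles mark the 4 windows called higher, of which 2 lie in the chemokine cluster and 2 in the Socs3 locus, and shading marks the gene intervals.

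The same scale over the genome was obtained by cutting the autosomes into tiles as wide as each locus. Of 14975 tiles of 160 kb, 14 had a ratio at or above that of the chemokine cluster (0.0935%), and of 54091 tiles of 44 kb, 124 were at or above Socs3 (0.229%). For Il6 the share was 7.74% of tiles of 48 kb, and for Lif 8.74% of tiles of 56 kb. The median tile had a ratio between 0.907 and 0.930 in the 4 widths. These shares place loci that were chosen with their ratios known and are read as a scale only.

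**Figure D2:**
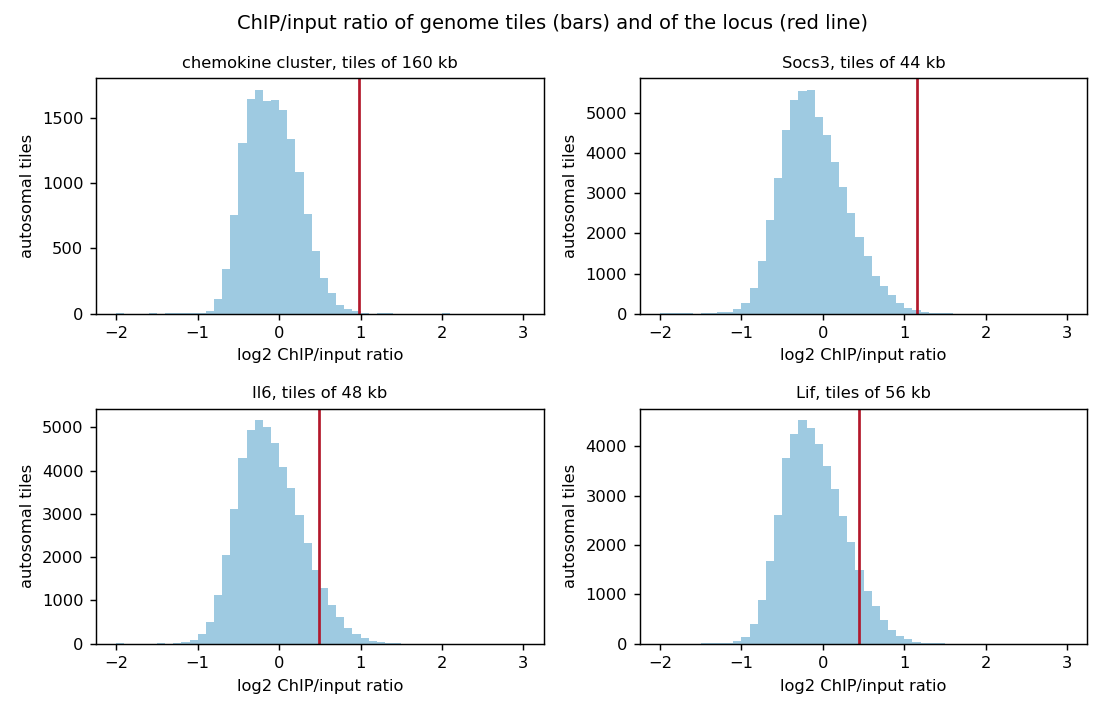
Number of autosomal tiles (vertical axis) by log2 ChIP/input ratio (horizontal axis, steps of 0.1) for tiles as wide as each locus, with the ratio of the locus as a red line. The lines of the chemokine cluster and Socs3 stand in the upper tail, at 0.0935% and 0.229%, and those of Il6 and Lif lie on the upper slope, at 7.74% and 8.74%.

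Input tags were also denser at most of these loci. ChIP density was 3.65 times the autosomal mean at Socs3 (3.41 to 3.90) and 2.65 times in the chemokine cluster (2.55 to 2.76), where the input stood at 1.63 times (1.40 to 1.90) and 1.34 times (1.23 to 1.47). At Lif ChIP density was 2.04 times the mean (1.88 to 2.21) and input density 1.4997 times (1.30 to 1.73). At Il6 ChIP density was 1.37 times (1.23 to 1.52), with the input at its mean, 0.978 times (0.803 to 1.18). The part that input density plays in the ratios was not tested.

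The chemokine ligands share a single interval, in which the gene table orders them Ccl2, Ccl7, Ccl11, Ccl12, Ccl8 with no other protein-coding gene between them. Ccl2, Ccl7 and Ccl12 draw monocytes through the receptor Ccr2, Ccl11 (eotaxin) draws eosinophils through Ccr3, and Ccl8 in mice acts on Ccr8. The starts of these genes on mm9 were not used here, so no window in the interval is assigned to 1 of them. The genes are 1555 to 5124 bases long, so most of the interval lies outside them. Whether its dense stretches lie over the genes or beside them was not determined. The cluster stood out from the chromatin on both sides of it. The interval of the same width below it had 992 ChIP tags against 444 in the input (0.948, 0.847 to 1.06), and that above it had 1057 against 489, a ratio of 0.917 (0.823 to 1.02). The ratio of the cluster was 2.12 times that of its neighbours (1.87 to 2.40).

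ChIP tags were not spread evenly through the cluster. In 10 kb bins, the interval began at 61 ChIP tags against 24 in the input (1.08), and the next 6 bins, from 81810000 to 81869999, lay between 1.89 and 3.19. The highest of these were the bin at 81840000, with 263 ChIP tags against 35 (3.19, interval 2.24 to 4.68), and that at 81820000, with 303 against 42 (3.06, 2.21 to 4.34). The bin at 81870000 had a ratio of 0.997 (0.691 to 1.46), after which that at 81880000 was at 2.17 (1.497 to 3.24). The 6 bins from 81890000 to 81949999 then ranged from 1.13 to 1.87, and the last bin, at 81950000, was at 2.20 (1.47 to 3.39). Over the lower 8 bins the ratio was 2.20 (1.93 to 2.50) and over the upper 8 it was 1.68 (1.45 to 1.96), a quotient of 1.31 (1.07 to 1.59). A bin or window is called at an adjusted p under 0.05 in a two-sided exact binomial test over the whole genome together with a ratio of at least 1.5. By this rule 8 of the 16 bins were called higher and 0 lower, where 3.98% of the tested 10 kb windows of the genome were higher and 1.11% lower. Outside the interval, 2 of 32 bins within 160 kb on either side were called.

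**Figure D3:**
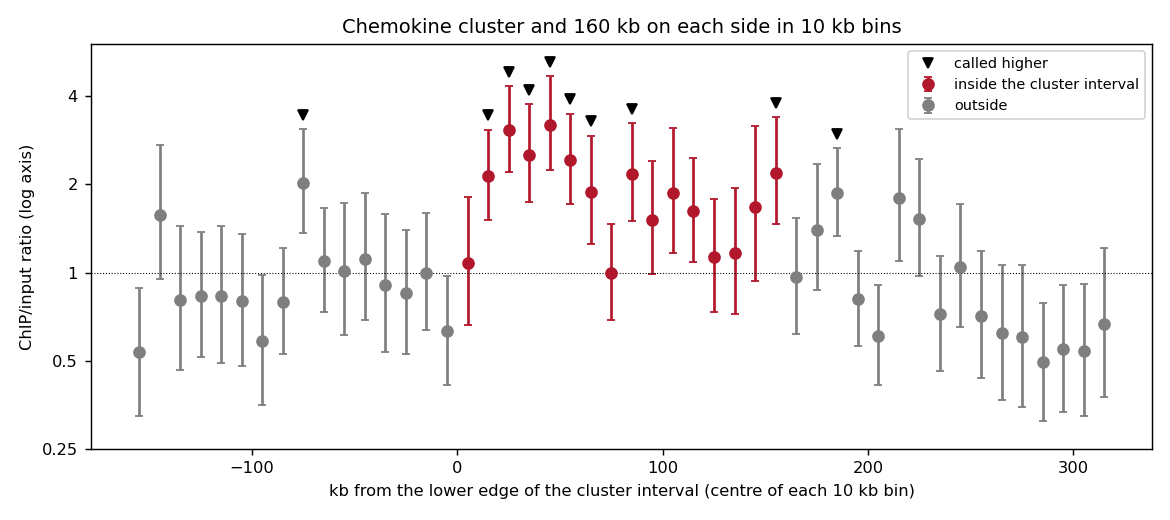
ChIP/input ratio (vertical log axis) of 10 kb bins across the chemokine cluster (red) and 160 kb on each side (grey), with 95% counting intervals, against the distance in kb from the lower edge of the cluster. The 8 called bins inside the cluster, marked by triangles, include 6 in a row, and the bins reach 3.19.

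At 1 kb, 2 of the 120 tested windows of the cluster were called higher, and over the genome 0.38% of 706215 tested windows were. The window chr11:81848000-81848999 had the most ChIP tags of all 4 loci, 56 (23 of them plus-strand and 33 minus-strand), with 1 in the input and thus a ratio of 23.8 whose interval ran from 4.09 to 955. Within it, 20 ChIP tags fell in 200 bp. The window lies in a stretch of 5 windows, chr11:81845000-81849999, with 203 ChIP tags against 22 in the input (3.92, 2.52 to 6.39). The other called window, chr11:81821000-81821999, had 50 ChIP tags against 4 in the input (5.30, 1.95 to 20.2). It lies in a stretch of 8 windows, chr11:81818000-81825999, with 258 against 34, a ratio of 3.22 (2.25 to 4.75). These stretches are runs of windows with at least 20 ChIP tags each, a value chosen after the data were seen. Because ChIP tags alone select the windows, high ratios of such runs are in part built in. Their counting intervals do not allow for this selection. In the cluster 46 of 160 windows reached it (28.8%), against 1.97% of autosomal windows. The longest run, of 10 windows at chr11:81852000-81861999, had 239 ChIP tags against 40 and a ratio of 2.54 (1.81 to 3.64). Across the cluster a window held 0 to 56 ChIP tags with a median of 11, and 0 to 10 input tags with a median of 3. The autosomal medians were 5 and 2. There were 5 windows of the cluster with no ChIP tag and 22 with no input tag. All 5 without ChIP tags had no input tag either.

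Il6, a cytokine of the acute inflammatory response, had its densest ChIP tags at the edge of the gene interval where the gene starts, on the plus strand. The 4 windows from 2 kb before to 2 kb after that edge held 17, 15, 38 and 13 ChIP tags, against 3, 1, 6 and 1 input tags. Their sum, 83 against 11, gave a ratio of 3.20 (1.70 to 6.66). The 3 windows before these held 21 ChIP tags against 13 in the input (0.686, 0.328 to 1.49), and the 3 after them held 16 against 7, a ratio of 0.970 (0.378 to 2.79). The counting interval at the start did not overlap that of the 3 windows before it and did overlap that of the 3 after it. These zones were laid out after the data were seen. The Il6 promoter shown above, with its AP-1, C/EBP and NF-kB matches, adjoins the start of this gene, but its bases were not placed on mm9. The window at the edge itself, chr5:30339000-30339999, was the only one of the 48 in the locus with at least 20 ChIP tags. That is 2.08% of its windows, near the 1.97% of autosomal windows. Of the 38 ChIP tags of the window at the edge, 13 fell in 200 bp. Its 6 input tags were 2.58 times the autosomal mean, and its own ratio was 2.69 (1.13 to 7.78). The second in ChIP tags, chr5:30337000-30337999, had 17 against 3 (2.40, 0.696 to 12.8). In the locus a window held 0 to 38 ChIP tags with a median of 7, and 0 to 9 input tags with a median of 2.

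At 5 to 20 kb from the start the ratios were below the 3.20 found within 2 kb, with overlapping counting intervals. They were above the 0.686 and 0.970 at 2 to 5 kb, also with overlapping intervals. At 5 to 20 kb before the start edge 112 ChIP tags stood against 34 input tags (1.40, 0.945 to 2.12), and at 5 to 20 kb after it 89 stood against 34 (1.11, 0.741 to 1.70). The ratio of the whole Il6 locus was 1.495 times that of its neighbours (1.15 to 1.95), which had ratios of 0.882 below and 1.01 above. That of the 8 kb gene interval, 1.80, did not differ from its flanks, at 1.31, beyond counting error (quotient 1.38, 0.799 to 2.37). With 50 kb added on each side in place of 20 kb, the ratio of the Il6 locus was 1.13 (0.970 to 1.31). Of the 6 bins of 10 kb that overlap the Il6 locus, 0 were called higher and 0 lower, with ratios of 1.01 to 1.63. Over the genome 3.98% of the tested 10 kb windows were called higher.

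Lif, the cytokine that keeps mouse embryonic stem cells undifferentiated in culture, had its densest ChIP windows in the body of the gene interval, some kb after the start edge. Within 2 kb of the start edge the windows held 4, 9, 14 and 13 ChIP tags, against 1, 3, 3 and 4 in the input (1.54, 0.777 to 3.33). The 20 kb before the gene held 118 ChIP tags against 58, a ratio of 0.863 (0.625 to 1.20), while the 16 kb gene interval held 307 against 69, a ratio of 1.89 (1.45 to 2.49). The flank after the gene held 200 against 68 (1.25, 0.943 to 1.67). The gene interval was at 1.76 times both flanks together (1.26 to 2.46). Its windows with the most ChIP tags were chr11:4167000-4167999, with 38 against 3 (5.38, 1.71 to 27.2), and chr11:4163000-4163999, with 28 against 2 (5.94, 1.498 to 51.5), 10 and 6 kb after the start edge. Of the 56 windows of the locus 6 had at least 20 ChIP tags (10.7%, against 1.97% of autosomal windows). Among these, 5 lie in the gene interval. ChIP tags ranged from 1 to 38 with a median of 9.5, and input tags from 0 to 9 with a median of 4.

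The Lif locus did not differ from its wider surroundings beyond counting error. The neighbouring 56 kb below had a ratio of 1.44 (1.21 to 1.71) and that above 1.72 (1.46 to 2.02), and the locus was at 0.860 times both together (0.706 to 1.05). Of the 7 bins of 10 kb that overlap the locus, 2 were called higher, where 3.98% of the tested 10 kb windows of the genome were. One, at 4160000, had 219 ChIP tags against 42 (2.21, 1.58 to 3.16) and lies wholly in the gene interval. The other, at 4190000, had 266 against 38 (2.97, 2.11 to 4.29) and lies for the most part beyond the locus.

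Socs3, the inhibitor of this signalling, lay in a wide region rich in ChIP tags that took in its start. The 4 windows around the start edge, which is at the higher coordinate because the gene runs on the minus strand, held 8, 29, 35 and 43 ChIP tags in the direction of transcription, against 0, 4, 4 and 5 input tags. Their ratio was 3.75 (2.11 to 7.26). The 3 windows before them held 31 ChIP tags against 12 in the input (1.10, 0.547 to 2.34), and the 3 after them held 86 against 12, a ratio of 3.04 (1.65 to 6.11). ChIP tags were thus dense over the start and through the gene. The interval of the 3 windows before overlapped both of the others. The promoter of Socs3 shown above, with its GC box and STAT match, was not placed on mm9, so its distance from this edge is not given. The start it adjoins lies 970 bases inside the outer bound of the gene. A stretch of 9 windows with at least 20 ChIP tags each, chr11:117823000-117831999, covered the 4 kb gene interval and reached past both of its ends, with 293 ChIP tags against 41 (3.03, 2.18 to 4.31). The windows of this stretch were picked by their ChIP tags, so its ratio is in part built in.

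**Figure D4:**
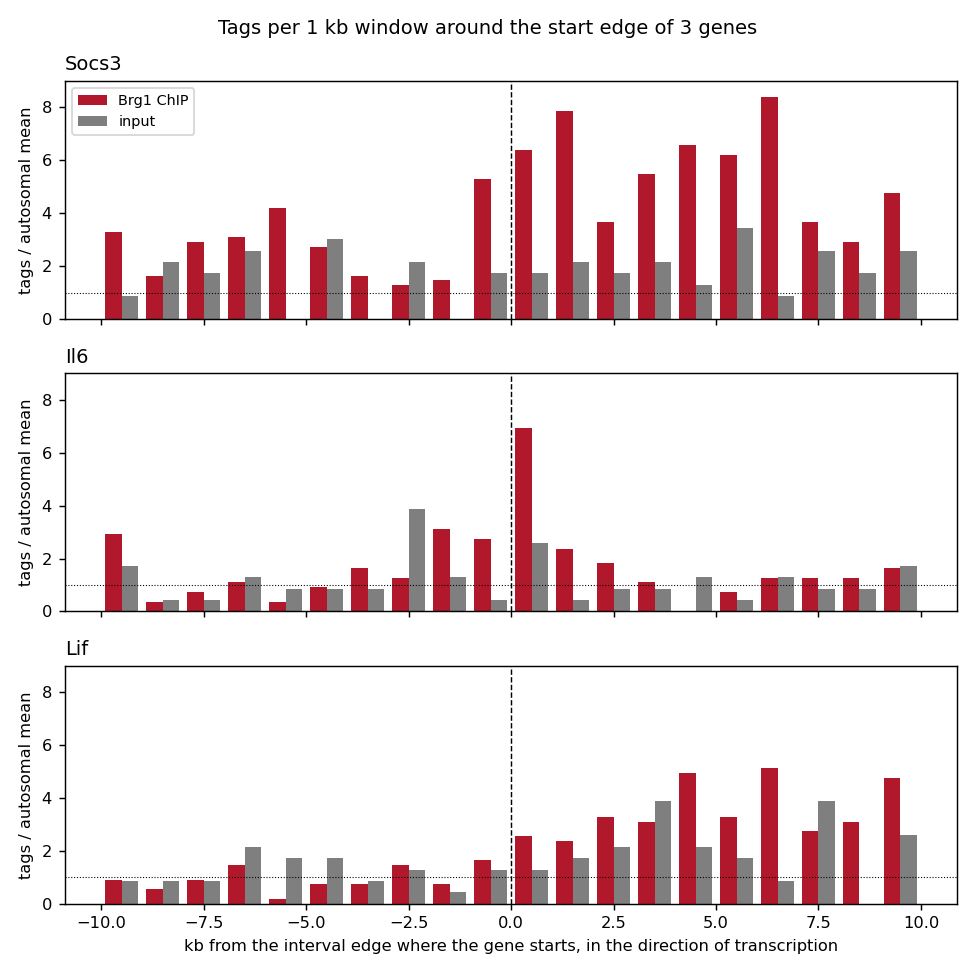
ChIP (red) and input (grey) tags in 1 kb windows over the autosomal mean of each library (dotted line), against the distance in kb from the interval edge where Socs3, Il6 and Lif start (dashed line), read in the direction of transcription. Il6 has a single high ChIP window at the edge (38 tags), Socs3 has 29, 35 and 43 ChIP tags in the windows from 1 kb before to 2 kb after the edge, and Lif is higher further into the gene.

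The 2 called windows of the Socs3 locus lay outside the gene interval. The window chr11:117824000-117824999, past the end of the gene, held 46 ChIP tags against 2 input tags (9.76, 2.55 to 83.0), and chr11:117849000-117849999, 18 kb before the start edge, held 35 against 1 (14.9, 2.50 to 603). The window chr11:117829000-117829999 inside the gene had 43 against 5 (3.65, 1.45 to 11.8) and was not called. Of the 44 windows, 18 had at least 20 ChIP tags (40.9%, against 1.97% of autosomal windows). ChIP tags ranged from 7 to 46 with a median of 17. Input tags ranged from 0 to 8 with a median of 4.

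Enrichment around Socs3 went beyond the gene. The 4 kb gene interval, at 3.02 (1.83 to 5.25), did not differ from its flanks, at 2.14, beyond counting error (quotient 1.41, 0.836 to 2.38). All 6 bins of 10 kb that overlap the locus were called higher, with ratios of 1.86 to 3.71, where 3.98% of the tested 10 kb windows of the genome were. In addition, 2 further bins directly above them were called. The highest, at 117850000, had 306 ChIP tags against 35 (3.71, 2.61 to 5.43) and lies almost wholly beyond the locus. The bin at 117800000 lies for the most part below the locus. The neighbouring 44 kb above had a ratio of 1.87 (1.59 to 2.21) and that below 1.34 (1.13 to 1.61), and the locus was at 1.38 times both together (1.13 to 1.69).

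**Figure D5:**
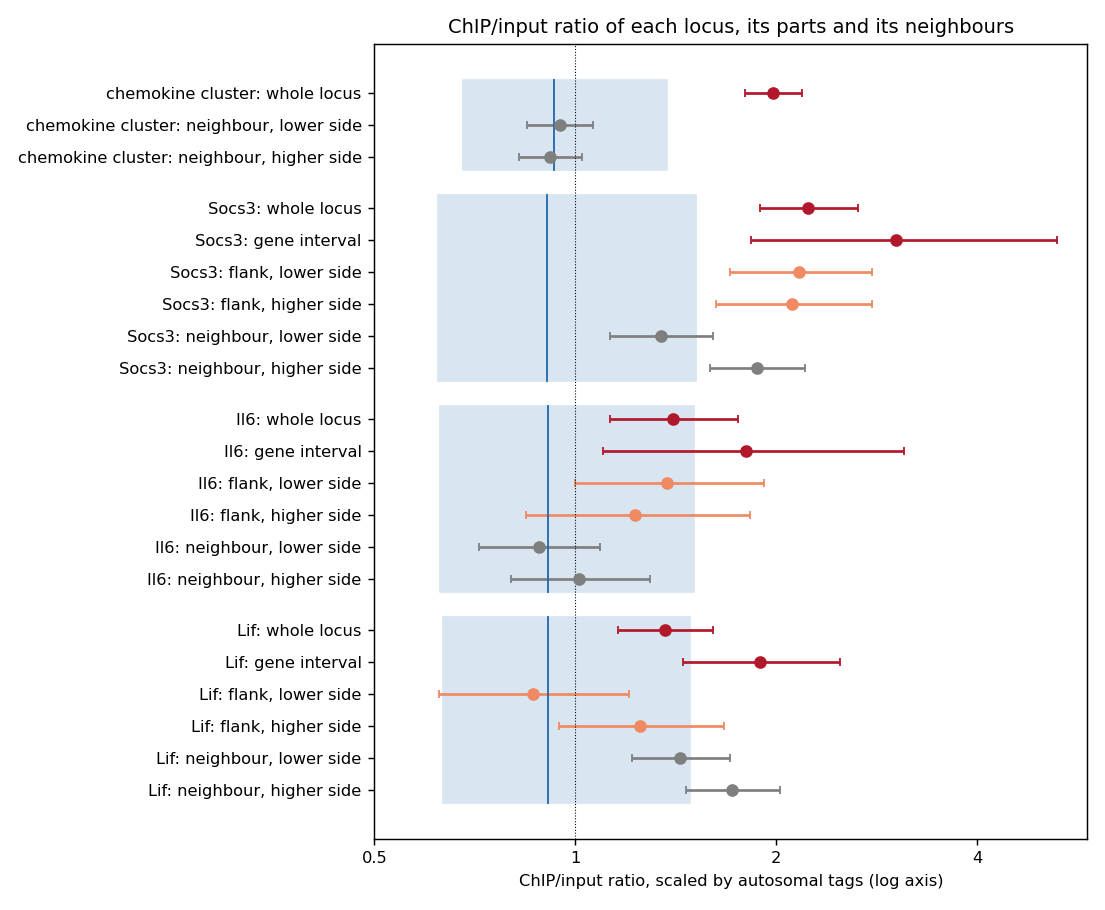
ChIP/input ratio (horizontal log axis) of each locus and gene interval (dark red), its 20 kb flanks (orange) and its neighbours of equal width (grey), with 95% counting intervals. Blue lines and bands give the median and the 5th to 95th percentile of autosomal tiles as wide as the locus. The chemokine cluster (1.98) lies above its band and both neighbours (0.948 and 0.917), while the Lif locus (1.36) is not above its neighbours (1.44 and 1.72).

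In all, 4 of the 220 tested windows of 1 kb in the 4 loci were called higher and 0 lower, where 0.38% of the tested windows of the genome were higher and 0.00666% lower. These were 2 of 120 in the cluster, 2 of 41 at Socs3, 0 of 20 at Il6 and 0 of 39 at Lif. At an unadjusted p under 0.05, 28 windows of the cluster were higher and 1 lower, and at Socs3 11 were higher and 0 lower. At Il6 2 were higher and 1 lower, and at Lif 3 were higher and 0 lower. The corresponding shares over the genome were 5.98% higher and 1.7% lower. Because the loci were chosen with this contrast known, the counts are not read against these shares. When a window's input was raised to at least the mean of the surrounding 10 kb, 0 of the 4 calls held. Over the genome, windows called higher fell from 2684 to 125 in this setting, 0.0158% of those tested. The ratio was then 5.94 at 81848000 in place of 23.8, 4.88 at 117824000 in place of 9.76 and 3.71 at 117849000 in place of 14.9. The window at 81821000 lost its call with its ratio unchanged at 5.30. With at most 1 tag per strand within 5 bp, or with no minimum of tags, 1 of the 4 calls held, that of the window at 81848000. The shares called higher over the genome in these settings were 0.0585% and 0.0295%.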

How the data were processed

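Tags of 1 Brg1 ChIP and 1 input library were counted. The values are counts as deposited, the number of tags at each chromosome, strand and position. Per the submitters' processing notes, Bowtie and the build mm9 were used; version, settings and any filter on repeated tags are not given in the sources used here. Positions are printed as listed and may be off by 1 bp.

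Each tag was moved 75 bp along its strand. The intervals, the gene names and their edges, which are rounded to the kb, were taken from the definition of the loci. Members and lists were chosen with earlier results of these data known. ChIP counts were scaled by autosomal totals, 2.36 ChIP tags per input tag, and ratios have exact conditional (Clopper-Pearson) 95% intervals. Quotients of ratios have log-normal intervals. Windows with at least 10 tags in both libraries together were tested over the genome (exact binomial test, two-sided) with Benjamini-Hochberg adjustment; the steps were tested on simulated data. Named windows were up to 3 called regions and the 2 windows with the most ChIP tags per locus. The zones around start edges and the runs of dense windows were chosen after the data were seen. Strand and promoters came from RefSeq tables on GRCm38.p6, and no coordinates were converted. Alternatives were other scalings, repeated-tag filters, movement, widths, minimums and an input floor. Python 3.11.15, numpy 2.4.6, scipy 1.17.1, pandas 2.3.3 and matplotlib 3.10.9 were used.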

Additional observations from a re-analysis of the deposited data

How the results depend on the processing

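Values were taken for the 4 locus ratios, the comparisons with flanks or neighbours and the count of called windows. Of these, 37 stayed within their interval or within 1.5 times the count, 16 moved further and 0 changed direction. A change of direction could not be recorded for the count of called windows. Nor could it for Socs3 and Il6 against their flanks, whose main intervals include 1. Background scaling, which lowers the scale to 1.83 ChIP tags per input tag, raised the ratio to 2.55 in the chemokine cluster, 2.88 at Socs3, 1.81 at Il6 and 1.75 at Lif. Widening the cluster by 20 kb gave 1.78. Without widening, the gene intervals alone gave 3.02 at Socs3, 1.80 at Il6 and 1.89 at Lif, and widening by 50 kb took Il6 to 1.13, with an interval of 0.970 to 1.31. The 4 called windows, of 220 tested, became 18 of 220 with background scaling, where 2.07% of the tested windows of the genome were called higher. With a minimum of 20 tags there were 19 of 102, a share near the 19.4% over the genome. With no minimum there was 1 of 303 (0.0295% over the genome). The last 2 counts change in part by construction, since the minimum sets how many windows are tested and which. It is applied to the tags of both libraries together, and the ChIP library is the deeper. A higher minimum thus keeps windows with many ChIP tags. Of the windows of 2 kb, 13 of 150 were called (0.802% over the genome), and of those of 10 kb, 16 of 35 (3.98%). These counts take in windows that overlap a locus only in part. Among the called 10 kb windows, some at Socs3 and Lif lie mostly outside the locus. With at most 1 tag per strand within 5 bp there was 1 of 215 (0.0585%). With the input of each window raised to at least its mean over 10 kb there were 0 of 231 (0.0158%). That setting lowered the ratio of 3 of the 4 called windows and left that at 81821000 unchanged at 5.30. The cause of the other moves was not tested. The window at 81848000 kept its call in every setting for 1 kb windows other than the input floor. The ratios within 2 kb of the start edges stayed inside their intervals in every setting tried, among them a zone of 1 kb, which was added after the data were seen. No paired analysis was possible because there is only 1 ChIP and 1 input library. With 2.32 tags per kb in the input, depth limits the single windows, whose ratios change greatly with a single input tag.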
